A study of Mus musculus with 8 samples.

Results

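The genes described here encode proteins of the cytoplasmic ribosome. They were taken from the array's platform annotation as every probe set with a single gene symbol beginning with Rps or Rpl and a digit, leaving out the Rps6k kinases, and each gene was represented by its probe set of highest mean signal over the 8 arrays. The rule found 97 probe sets and 46 genes among the 12393 genes with such a probe set, 22 of the small subunit and 24 of the large subunit. Of the 46 genes, 39 are core ribosomal proteins and 7 are variant or pseudogene symbols: Rpl22l1, Rpl39l, Rpl3l, Rpl7l1, Rps15a-ps6, Rps27l and Rps4l. The set is not the whole ribosome, because 27 further ribosomal protein symbols, Rpl5 and Rpl24 among them, were found only on probe sets that carry several symbols.

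RNA of mouse eyes was hybridised to 8 Affymetrix arrays, 2 (I and II) for each of 4 groups. The groups were wild-type eyes at 5 days (C57Bl6), KPAW eyes at 5 days, wild-type eyes at 1 month and KPAW eyes at 1 month. The labels do not expand KPAW, give no strain for the other 3 groups, and do not say whether arrays I and II came from separate animals, so that every p-value measures only the spread between arrays.

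A ribosome is built from ribosomal RNA and about equal amounts of each core protein, which are made in the cytoplasm, imported into the nucleolus and assembled there on RNA transcribed by RNA polymerase I. The messenger RNAs of these proteins are abundant in every cell and usually begin with a cytosine followed by a run of pyrimidines, the terminal oligopyrimidine tract, through which the TOR pathway controls their translation. Demand for ribosomes is high in dividing and growing cells, and several of the proteins, such as Rpl5 and Rpl11, also bind the p53 regulator Mdm2 when assembly is disturbed.

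The start sites of the members were read from RefSeq promoter windows (GRCm38.p6), which reach from 250 bases before to 50 bases after an annotated start. Windows were matched for 39 of the 46 members, 47 windows in all. A cytosine exactly at the annotated start followed by 4 pyrimidines was found in 7 of the 39 genes (17.9%), against 3.01% of the 27025 genes with a window, and within 5 bases of the start in 48.7% against 21.2%. The stretches below reach from 40 bases before the start to 15 bases from it onward, 5′ to 3′ on the gene's strand, and capitals mark the unbroken pyrimidine run through the start. Rpl14, Rpl35, Rps27, Rps6 and Rpl38 hold the tract at the annotated base. Rps25 and Rps26 do not, although Rps26 holds such a stretch within 5 bases of the start and Rps25 does not. All 7 genes are shown because their values are described below. They lie at chr9:120571477-120571531 (+), chr2:39005117-39005171 (-), chr3:90213634-90213688 (-), chr4:86857353-86857407 (-), chr11:114668540-114668594 (+), chr9:44407674-44407728 (+) and chr10:128626492-128626546 (-), in that order.
Rpl14: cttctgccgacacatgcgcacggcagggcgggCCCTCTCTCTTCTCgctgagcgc
Rpl35: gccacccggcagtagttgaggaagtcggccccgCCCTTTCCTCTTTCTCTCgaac
Rps27: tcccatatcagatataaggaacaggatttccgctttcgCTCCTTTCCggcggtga
Rps6: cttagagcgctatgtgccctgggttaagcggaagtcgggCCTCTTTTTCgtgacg
Rpl38: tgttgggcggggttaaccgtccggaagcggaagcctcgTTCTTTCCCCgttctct
Rps25: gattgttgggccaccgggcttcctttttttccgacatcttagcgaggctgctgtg
Rps26: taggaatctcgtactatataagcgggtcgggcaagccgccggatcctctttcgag

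Other short sequences were searched on both strands of the windows. CCGGAAG, an ETS-type sequence, was found in 19 of the 39 genes (48.7%) against 9.93% of all genes with a window. TCTCGCGA was found in 23.1% against 1.13%, GGGCGG in 53.8% against 38.2%, AAGATGGCG in 7.69% against 1.64%, and TATAAA in 12.8% against 15.7%. These are matches of letters in RefSeq windows, and they say nothing of the expression values.

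Signals were scaled so that the 8 arrays had the same trimmed mean (2% off each end), and all levels below are such scaled signals. Tests ran on log2(scaled signal + 0.0211) for the 15838 probe sets with a mean above the 30th percentile of all, so a log2 difference understates the change of a dim probe set. A gene was called, and is said to have fallen or risen, where limma gave it an adjusted p below 0.05 (Benjamini-Hochberg, across all of these probe sets). Of the 46 members, 44 entered the tests. Rps15a-ps6, a pseudogene in RefSeq, was listed at the lowest deposited value in all 8 arrays, and Rpl3l, a relative of Rpl3 best known from striated muscle, in 4 arrays and at 0.0387 at most. The members tested had mean signals from 0.0591 (Rpl12) to 7.38 (Rpl41), and 33 of the 44 lay in the top 10% of all probe sets. Probe sets differ in how well they bind, so signals of different genes were not set against each other.

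The arrays differed in ways that bear on the members. In the order wild type I and II and KPAW I and II, the trimmed means before scaling were 0.165, 0.142, 0.155 and 0.20 at 5 days and 0.253, 0.189, 0.172 and 0.188 at 1 month. All 4 lens, rod, corneal and pigment marker sets gave signal, but the summed rod markers of KPAW I at 1 month were 0.788, beside 25.2 to 31.1 in the other 3 arrays of that age, with Gnat1 at 0.048 and Nrl at 0.024. The summed markers of keratinizing epithelium were 16.1 and 6.46 in the KPAW arrays at 1 month and 0.294 and 0.299 in the wild-type arrays. They were also 3.75 in wild type I and 2.78 in KPAW I at 5 days, against 0.325 and 0.271 in the other array of each group. The part of these markers in the results below was not tested. Where a contrast uses KPAW I at 1 month, the members' median is given with and without that array. Most other results that use it, those of the gene lists among them, are given only with it.

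In wild-type eyes the ribosomal protein genes lay lower at 1 month than at 5 days as a group, by a small amount in most of them. The log2 difference was below 0 in 41 of the 44 members, with a median of -0.30 and quartiles of -0.47 and -0.21, beside a median of -0.00 over all probe sets tested. On the signals as deposited the members' median was 0.18 and that of all probe sets 0.44, so the sign depends on the scaling while the position below the other probe sets does not. Quantile normalization gave -0.25 and median scaling -0.39. Few members passed the test singly: 4 fell (9.09%) and none rose, against 9.33% of all probe sets that fell and 8.73% that rose (18.1% either way), so the share that fell was close to that of the array as a whole. In 29 members (65.9%) both 1-month arrays lay below both 5-day arrays, against 33% of all probe sets. An unadjusted p under 0.05 was reached by 15 of the 44 (34.1%), close to the 33.4% of all probe sets. In whole-eye RNA, fewer cells with many ribosomes and less of these transcripts per cell cannot be told apart.

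The members differed from one another less than other probe sets did. The standard deviation of the log2 difference was 0.31 over the 44 members and 0.68 over all probe sets. It was 0.21 over the 33 bright members and 0.91 over 2125 other probe sets in the same top 10% by signal. Over the 11 dim members it was 0.52. A narrow spread was not particular to the members. It was 0.16 over 13 translation factors and similar genes, 0.34 over 74 mitochondrial ribosomal proteins and 0.40 over 24 ribosome assembly factors. Over the 44 members the range ran from -1.13 (Rpl14) to 0.74 (Rps27). The median was -0.30 over 21 small-subunit members, 3 of which fell, and -0.31 over 23 large-subunit members, 1 of which fell. The 39 core genes had a median of -0.31, and the 5 variants that were tested -0.25.

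**Figure D1:**
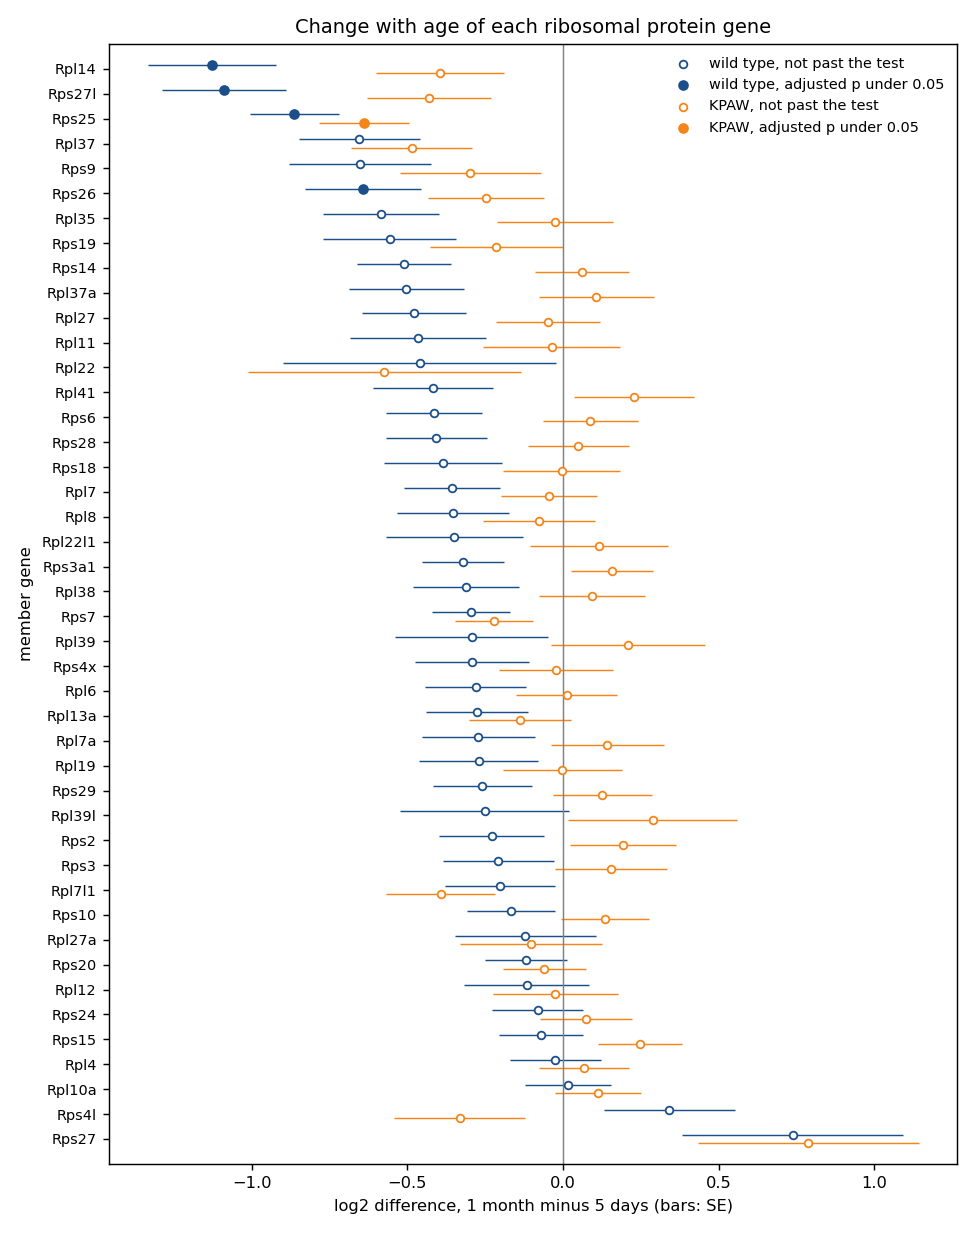
Log2 difference between 1 month and 5 days for each of the 44 members tested, with its standard error from the model, in wild type (blue) and KPAW (orange). Filled points passed an adjusted p of 0.05: Rpl14, Rps27l, Rps25 and Rps26 in wild type and Rps25 in KPAW. In wild type 41 points lie below 0 on this scaling, beside 23 in KPAW.

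Rpl14, a protein of the large subunit, had the largest difference. Its signals at 5 days were 0.136 and 0.139 in wild type and 0.123 and 0.109 in KPAW, and at 1 month 0.0523 and 0.0509 in wild type and 0.106 and 0.0643 in KPAW. The wild-type arrays of each age were close together and the ages far apart, while the KPAW arrays at 1 month lay between the wild-type values of both ages. In wild type it fell by 1.13 on the log2 scale (SE 0.21, n = 2 arrays per group, limma adjusted p = 0.00992). In KPAW the difference was -0.39 (SE 0.21, limma adjusted p = 0.237). The probe set is dim, and 5 brighter probe sets that carry Rpl14 beside other symbols gave wild-type differences from -0.39 to 0.00, none past the test.

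Rps27l, a close relative of Rps27 that p53 is known to induce, showed the same order of size in all of its probe sets. Its signals were 1.34 and 1.46 in wild type and 1.10 and 1.24 in KPAW at 5 days, and 0.756 and 0.551 in wild type and 1.01 and 0.739 in KPAW at 1 month. All 4 arrays of 5 days lay above all 4 of 1 month. In wild type it fell by 1.09 (SE 0.20, limma adjusted p = 0.00986), and the other 2 probe sets of the gene fell by 1.02 (SE 0.19, adjusted p = 0.00975) and 0.85 (SE 0.15, adjusted p = 0.00795). In KPAW the member probe set gave -0.43 (SE 0.20, limma adjusted p = 0.187), while one of the others fell by 0.78 (SE 0.19, adjusted p = 0.0298). Rps27 itself went the other way on its dim single-symbol probe set. Its signals were 0.0730 and 0.0857 in wild type at 5 days and 0.208 and 0.101 at 1 month, a difference of 0.74 (SE 0.36, limma adjusted p = 0.190), and the KPAW value was 0.79 (SE 0.36, adjusted p = 0.179). At 1 month both arrays numbered I lay well above those numbered II, and on a brighter probe set shared with other symbols the wild-type difference was -0.34 (adjusted p = 0.192).

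Rps25, a small-subunit protein known for its role at viral internal ribosome entry sites, was the only member past the test in both kinds of eye. Its signals at 5 days were 0.217 and 0.198 in wild type and 0.184 and 0.208 in KPAW, and at 1 month 0.108 and 0.101 in wild type and 0.112 and 0.124 in KPAW. The 4 arrays of each age did not overlap with those of the other. It fell by 0.86 in wild type (SE 0.14, limma adjusted p = 0.00728) and by 0.64 in KPAW (SE 0.14, limma adjusted p = 0.0252). A brighter probe set that also carries other symbols fell by 0.49 in wild type (SE 0.14, adjusted p = 0.0488) and gave -0.10 in KPAW (adjusted p = 0.690).

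Rps26, which lines the exit of the messenger RNA channel, was just past the threshold. Its signals were 3.78 and 3.28 in wild type and 3.40 and 2.80 in KPAW at 5 days, and 2.08 and 2.44 in wild type and 3.02 and 2.23 in KPAW at 1 month. The wild-type ages were apart and the KPAW ages overlapped. It fell by 0.64 in wild type (SE 0.19, limma adjusted p = 0.0493), and the KPAW difference was -0.25 (SE 0.19, adjusted p = 0.408). Without the filter on dim probe sets the wild-type adjusted p was 0.0784, and without the variance trend 0.0664.

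The calls rest on few arrays. The count of 4 in wild type went to 0 without wild type I at 5 days, 1 without wild type II at 5 days, 2 without wild type I at 1 month and 1 without wild type II at 1 month, and to 9 without either KPAW array of 1 month. The single KPAW call, Rps25, was not kept with every choice of arrays. The members as a group did not lie higher without KPAW I at 1 month. Their KPAW median less that of all probe sets was then -0.07, beside 0.04 with all arrays. On the signals as deposited none of the 4 wild-type calls remained, and Rps27 was called higher (adjusted p = 0.0139). Of all probe sets, 3238 of 3565 wild-type calls were then higher, beside 1382 of 2860 on the main scaling.

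Some members are known for roles outside the ribosome or in inherited anaemia. In wild type the log2 difference was -0.47 for Rpl11, which with Rpl5 forms the 5S particle (adjusted p = 0.181). It was -0.56 for Rps19, the gene most often mutated in Diamond-Blackfan anaemia (adjusted p = 0.111), -0.41 for Rps6, the substrate of S6 kinase (adjusted p = 0.101), and -0.31 for Rpl38, known for tissue-specific patterning defects in mice (adjusted p = 0.239). The corresponding KPAW values were -0.04, -0.21, 0.09 and 0.09. None of these 8 values passed the test. The Rps6 probe set is dim, and brighter probe sets carry Rps6 beside other symbols. The brightest of them gave -0.18 in wild type and 0.30 in KPAW. As a whole they ran from -0.25 to 0.16 in wild type and from -0.26 to 0.35 in KPAW, none past the test. Rpl35, which sits at the peptide exit tunnel, had signals of 4.27 and 3.62 in wild type and 3.36 and 3.17 in KPAW at 5 days, and 2.28 and 3.003 in wild type and 3.64 and 2.82 in KPAW at 1 month. The wild-type ages were apart and the KPAW ages overlapped, with differences of -0.58 (SE 0.19, limma adjusted p = 0.0651) and -0.02 (SE 0.19, adjusted p = 0.944). By position in the ribosome, all 4 tested members at the peptide exit tunnel and all 5 at the messenger RNA channel lay below 0 in wild type on this scaling, with medians of -0.28 and -0.41 that became 0.20 and 0.10 on the deposited signals, and only Rps26 passed. For Rps14, at the channel, the member probe set gave -0.51 (SE 0.15, limma adjusted p = 0.0526), and its second probe set fell by 0.86 (SE 0.16, limma adjusted p = 0.0099).

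The choice of probe set changed the wild-type picture in size more than in sign. Of the 46 genes, 24 had a single probe set of their own and 22 had several. Among the 22, the sign differed between tested probe sets of Rpl37a (-0.50 to 0.53), Rpl35 (-0.70 to 0.19) and Rps29 (-0.26 to 0.05). In the rest every tested probe set lay below 0. Over all 84 tested single-symbol probe sets of the members, 78 lay below 0 in wild type, 9 fell (10.7%, against 9.33% of all probe sets), and the median was -0.36. Over the 91 tested probe sets that carry a ribosomal protein symbol beside others, 83 lay below 0, 11 fell (12.1%, against the same 9.33%), and the median was -0.34. These probe sets share transcripts and pseudogene copies with one another and with the members, so they are not independent of them.

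**Figure D2:**
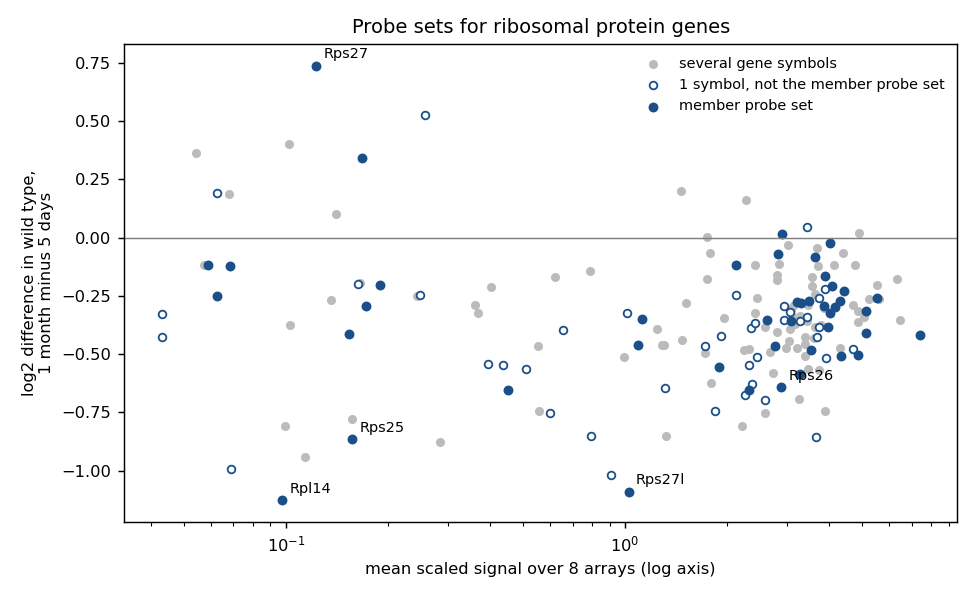
Wild-type log2 difference between 1 month and 5 days (vertical axis) against mean scaled signal over the 8 arrays (horizontal log axis) for every tested probe set with a ribosomal protein symbol: member probe sets (filled blue), other single-symbol probe sets of the members (open blue) and probe sets with several symbols (grey). Most points lie between -0.75 and 0, and Rpl14, Rps25 and Rps27 are among the dim probe sets that spread more widely.

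In KPAW eyes the same comparison of ages gave no shared direction on this scaling. The log2 difference was above 0 in 21 members and below 0 in 23, with a median of -0.00 beside -0.04 over all probe sets. A single member, Rps25, fell (2.27%), against 7.51% of all probe sets, and none rose, against 6.76% (14.3% either way). Both 1-month arrays lay below both 5-day arrays in 8 members (18.2%), against 32.2% of all probe sets, and above them in 3 (6.82%), against 25.3%. With quantile normalization the KPAW median was -0.19, beside -0.05 over all probe sets, so the absence of a direction rests on the scaling. The median less that of all probe sets was 0.04 with all arrays, -0.07 without KPAW I at 1 month and -0.07 without KPAW II at 5 days, but 0.17 without KPAW II at 1 month and 0.19 without KPAW I at 5 days.

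The difference between KPAW and wild-type eyes was then taken at each age. At 1 month 41 of the 44 members lay higher in KPAW than in wild type, with a median of 0.17 beside -0.01 over all probe sets, and no member passed the test (0%, lowest limma adjusted p = 0.540), against 0.0253% of all probe sets (0.0126% higher and 0.0126% lower). An unadjusted p under 0.05 was reached by 3 members (6.82%), close to the 6.95% of all probe sets. The groups did not overlap in 12 members that were higher in KPAW (27.3%, against 17% of all probe sets) and in 1 that was lower (2.27%, against 19.6%). On the deposited signals the members' median was -0.09 and that of all probe sets -0.26. The median less that of all probe sets was 0.18 with all arrays and 0.06 without KPAW I, the array with little rod signal, and 0.10 without wild type I, and with quantile normalization it was 0.08.

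At 5 days the members lay the other way. The log2 difference between KPAW and wild type was below 0 in 40 of the 44, with a median of -0.17 beside 0.01 over all probe sets, and no member passed the test (0%), as no probe set of the array did (0%). No member reached an unadjusted p under 0.05. Both KPAW arrays lay below both wild-type arrays in 17 members (38.6%, against 16.6% of all probe sets) and above them in 1 (2.27%, against 16.8%). On the deposited signals the median was 0.03, beside 0.18 over all probe sets. The median less that of all probe sets was -0.18 with all arrays and -0.05 without KPAW II, and with quantile normalization it was -0.02.

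**Figure D3:**
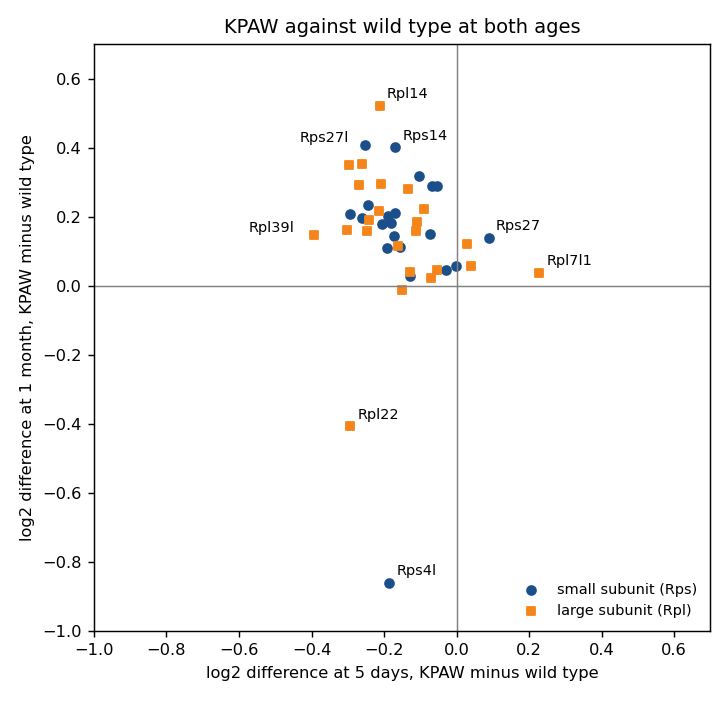
Log2 difference between KPAW and wild type at 5 days (horizontal axis) and at 1 month (vertical axis) for the 44 members tested, small-subunit genes as circles and large-subunit genes as squares. Most points lie left of 0 and above 0 on this scaling, Rpl13a, Rpl22 and Rps4l lie below 0 on both axes, and no point passed the test on either axis.

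Members at the ends of this spread were named by their test statistics. Rps4l, a transcribed pseudogene in RefSeq that resembles Rps4x, was the lowest at 1 month. Its signals were 0.166 and 0.183 in wild type and 0.175 and 0.129 in KPAW at 5 days, and 0.273 and 0.187 in wild type and 0.125 and 0.107 in KPAW at 1 month. At 1 month both KPAW arrays lay below both wild-type arrays, by -0.86 (SE 0.21, unadjusted p = 0.0036, limma adjusted p = 0.540), which did not pass. Rps4x differed by age in wild type by -0.29 (adjusted p = 0.307). Rpl14 (0.52), Rps27l (0.41) and Rps14 (0.40) were highest in KPAW at 1 month, each with a limma adjusted p of 0.675.

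Of the variants beside their core genes, Rpl22 and Rpl22l1 are a pair of paralogs that are known to regulate each other. The Rpl22 signals spread too widely for a comparison, from 2.13 to 0.860 between the wild-type arrays of 5 days and from 0.717 to 1.33 between those of 1 month. Its second probe set fell in KPAW by 0.47 (SE 0.13, limma adjusted p = 0.0473), and the wild-type difference was -0.40 (SE 0.13, adjusted p = 0.0699). Rpl22l1 gave -0.35 in wild type (adjusted p = 0.307) and 0.12 in KPAW (adjusted p = 0.766). For Rpl39l, a relative of Rpl39 best known from testis, the values were -0.25 and 0.29, and for Rpl39 they were -0.29 and 0.21, none past the test. The Rpl39 probe set is dim, and a brighter one that carries other symbols too gave -0.38 and -0.19 (adjusted p = 0.351 and 0.665), so the KPAW sign differed between them. Rpl7l1 gave -0.20 and -0.39 and Rpl7 gave -0.36 and -0.04, none past the test.

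The change of the KPAW difference between the ages was tested as an interaction. Of the 44 members 41 lay above 0, with a median of 0.35 beside -0.03 over all probe sets, and none passed (0%, lowest limma adjusted p = 0.809), as no probe set of the array did (0%). An unadjusted p under 0.05 was reached by 7 members (15.9%, against 5.88% of all probe sets), led by Rps14 (0.57, SE 0.21), Rps3a1 (0.48, SE 0.19), Rpl14 (0.73, SE 0.29) and Rpl41 (0.65, SE 0.27). That count of 7 rests on single arrays, KPAW I at 1 month among them, and on the processing. It was 3 with quantile normalization and 2 with no filter or with no variance trend. The median less that of all probe sets was 0.38 on the main scaling and 0.11 with quantile normalization. Without KPAW I at 1 month it was 0.24. A difference between KPAW and wild type in how these genes change with age was therefore not shown.

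In 5 members, Rpl14, Rpl37a, Rpl41, Rps3a1 and Rps6, both KPAW arrays lay below wild type at 5 days and above it at 1 month (11.4%, against 3.74% of all probe sets), and in 0 the reverse (against 3.77%). Probe sets with several symbols did not all repeat this. The brightest with Rps6 did, while the other tested ones with Rps6 and the 5 brighter ones with Rpl14 did not. On one with Rpl37a both KPAW arrays lay above wild type at 5 days. For Rpl41, the shortest of the ribosomal proteins, the signals at 5 days were 8.31 and 8.39 in wild type and 7.98 and 5.79 in KPAW. At 1 month they were 5.48 and 7.12 in wild type and 8.59 and 7.38 in KPAW. KPAW II at 5 days and wild type I at 1 month were the lowest arrays for this gene. Rpl37a, a zinc-binding protein of the large subunit, gave 5.57 and 5.69 in wild type and 5.43 and 4.06 in KPAW at 5 days, and 3.55 and 4.43 in wild type and 5.55 and 4.62 in KPAW at 1 month. The same 2 arrays were lowest.

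Those 2 arrays were lowest for the members as a group. Taking each gene's deviation from its mean over the 8 arrays, the members' median was 0.21 and 0.12 in wild type and 0.12 and -0.13 in KPAW at 5 days, and -0.29 and -0.07 in wild type and 0.14 and -0.10 in KPAW at 1 month. Replicates thus differed by as much as groups did: the median gap between arrays I and II of a member was 0.13 in wild type and 0.29 in KPAW at 5 days, and 0.30 and 0.24 at 1 month. The arrays with the lowest values, wild type I at 1 month and KPAW II at 5 days, had the largest trimmed means before scaling, 0.253 and 0.20. Other probe sets in the top 10% by signal, 2125 in number, had medians between -0.07 and 0.07 on the 8 arrays, and their median age difference was -0.13 in wild type and -0.04 in KPAW. With quantile normalization the members' array medians were 0.15, 0.12, 0.12 and 0.08 at 5 days and -0.18, -0.14, -0.00 and -0.14 at 1 month, which puts the 4 arrays of 5 days above the 4 of 1 month. The part of array scaling and brightness in the differences between KPAW and wild type was not tested.

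**Figure D4:**
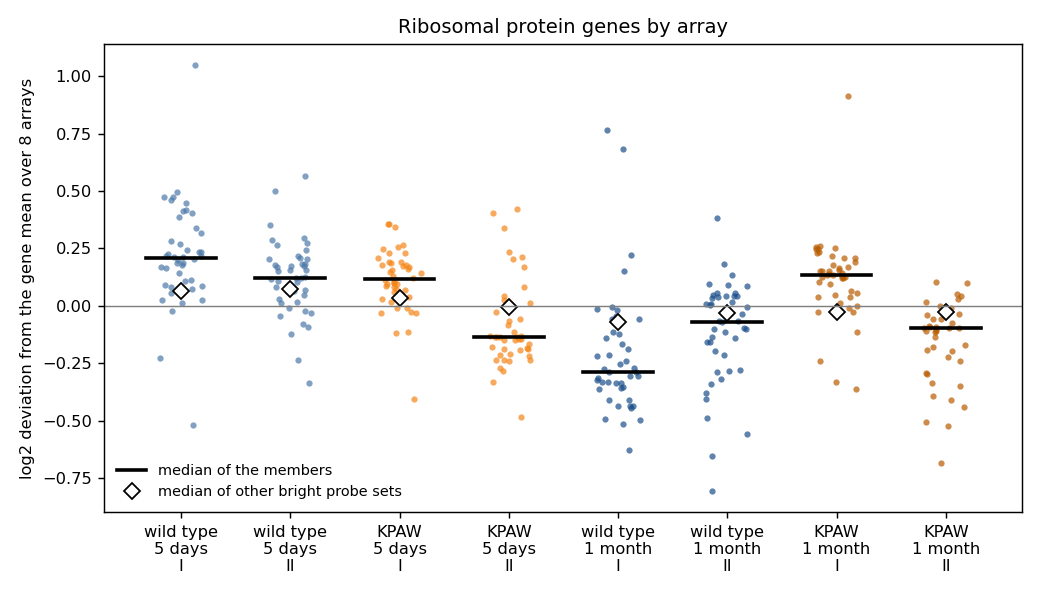
Log2 deviation of each of the 44 members from its own mean over the 8 arrays (points), by array, with the members' median (black line) and the median of 2125 other bright probe sets (diamond). The members' median runs from 0.21 in wild type I at 5 days to -0.29 in wild type I at 1 month on this scaling, and the replicates of a group stand apart in every group but wild type at 5 days.

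Genes that make and serve ribosomes were taken from lists of pathway members. Of the ribosome assembly factors, 7 of 24 tested fell with age in wild type (29.2%, against 9.33% of all probe sets), with a median of -0.39. In KPAW 4 of 24 fell (16.7%, against 7.51%), with a median of -0.26, and 2 further genes of the list were too dim to be tested. Nop58, a core protein of the box C/D particles that guide ribosomal RNA methylation, fell by 1.11 in wild type (SE 0.21, limma adjusted p = 0.012) and by 1.01 in KPAW (SE 0.21, adjusted p = 0.0199). Its signals were 0.182 and 0.176 in wild type at 5 days and 0.0570 and 0.0894 at 1 month, and 0.127 and 0.141 against 0.0465 and 0.0663 in KPAW. Brix1, a factor of large-subunit assembly, fell by 0.61 and 0.72 (adjusted p = 0.024 and 0.0163). Nip7, Nop10, Npm1, Gar1 and Tsr1 also fell in wild type, and Pes1 and Nop16 in KPAW; that each was called in 1 kind of eye does not show a difference between them. On the deposited signals the wild-type median of the list was 0.08 and 1 gene was called higher and none lower, while its position below all probe sets (-0.36) was kept.

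RNA polymerase I and the growth regulators gave fewer calls. Of 8 polymerase I genes, Polr1e fell by 0.85 (adjusted p = 0.0165) and Polr1d, a subunit shared with RNA polymerase III, rose by 0.68 (adjusted p = 0.0216) in wild type, which is 12.5% in each direction against 9.33% and 8.73% of all probe sets, and none passed in KPAW. Of 13 regulators of the Myc, TOR and p53 pathways, Mycn, a Myc family factor of retinal progenitors, fell by 1.29 in wild type (SE 0.18, limma adjusted p = 0.00339) and by 1.39 in KPAW (SE 0.18, adjusted p = 0.0033). Mycl fell by 1.72 and 1.17 (adjusted p = 0.0109 and 0.0478), and Akt1 fell by 0.48 in wild type (adjusted p = 0.032), so 23.1% of the list fell in wild type and 15.4% in KPAW, against 9.33% and 7.51%. Of 13 translation factors and other genes with the same kind of pyrimidine tract, 12 lay below 0 in wild type on this scaling, with a median of -0.29, but the median was 0.21 on the deposited signals. In this list Hnrnpa1, an RNA-binding protein, fell by 0.46 in wild type and 0.61 in KPAW (adjusted p = 0.0396 and 0.0182), which is 7.69% of the list in each, close to the share of all probe sets. Of 4 ribosomal proteins whose symbols the name rule does not reach (Rplp0, Rplp2, Rpsa and Fau), none passed, with medians of -0.35 in wild type and 0.05 in KPAW.

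Markers of dividing cells moved with age in both kinds of eye. Of 12 cell cycle genes 8 fell in wild type and 8 in KPAW (66.7% in each, against 9.33% and 7.51% of all probe sets), with medians of -0.95 and -1.01 (-0.55 and -0.99 on the deposited signals, with 4 and 6 calls). Their summed signal was 4.27 to 4.54 in the arrays of 5 days and 1.92 to 2.46 in those of 1 month, without overlap. Mki67, the classic proliferation marker, fell by 2.30 in wild type (SE 0.27, limma adjusted p = 0.00162) and by 1.59 in KPAW (SE 0.27, adjusted p = 0.00852). The part of cell division in the members' values was not tested.

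**Figure D5:**
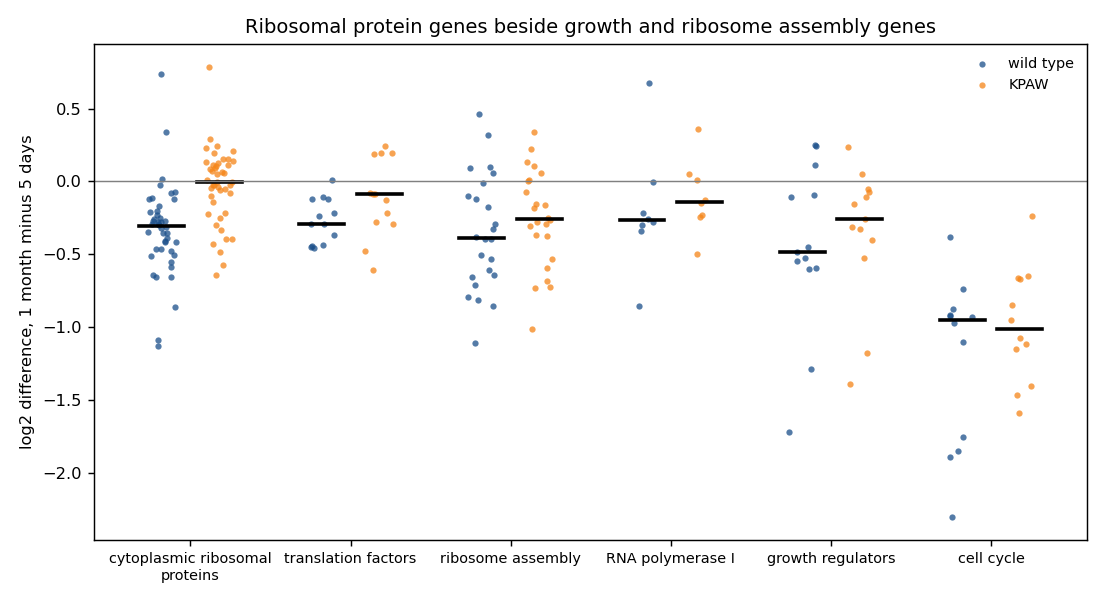
Log2 difference between 1 month and 5 days in wild type (blue) and KPAW (orange) for the members and for 5 lists of related genes, one point per tested gene, with the median of each list as a black line. The members' medians are -0.30 and -0.00 on this scaling, while ribosome assembly (-0.39 and -0.26) and cell cycle genes (-0.95 and -1.01) lie below 0 in both kinds of eye.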

How the data were processed

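Total RNA of mouse eyes was prepared with Trizol and RNeasy columns, per the labels' protocols. The deposited values are a linear signal for each of 22690 probe sets and array, per the file headers, made by the authors with software not given in the sources used here. The control probe sets had a median of 1 on each array and the lowest listed signal was 0.01. After 64 controls were left out, 20380 probe sets had 1 gene symbol in the platform annotation, 691 several and 1555 none. Arrays were brought to a common trimmed mean (2% off each end, the median of the 8), and the pseudocount of 0.0211 was the 20th percentile of positive values. In R 4.3.3 with limma 3.58.1, group means were fitted to all 8 arrays together (4 residual degrees of freedom, variance trend), and p-values were adjusted within each of 5 contrasts. Tables and plots used Python 3.11.15, pandas 2.3.3 and matplotlib 3.10.9. The fit was tested on simulated data. The number of arrays limits the precision.

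The members, the gene lists and the tests were chosen with earlier results of these data known. Genes were named by rule: called members, up to 10 in each direction, filled up to 4 by the largest moderated statistics, the variants with their core genes, Rps6, Rpl11, Rps19 and Rpl38, and up to 3 genes of each list. The gene with the widest gap, the 5 members whose groups did not overlap at either age, the second probe set of Rps14, the further called ribosome assembly genes and the top 10% of bright probe sets were chosen after their values were seen. Alternatives were other scalings, pseudocounts and filters, no variance trend, the groups of a contrast alone, a replicate block, other probe set choices and leaving out each array. Array weights were added after the data had been seen.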

Additional observations from a re-analysis of the deposited data

How the results depend on the processing

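Values here are counts of the 44 members (46 with no filter) called (limma adjusted p under 0.05) or, for medians and single genes, log2 differences less the median of all probe sets. The 4 wild-type calls with age became 10 with quantile normalization, 7 with median scaling, 9 with the contrast's groups alone, 7 with the mean of all probe sets per gene and 9 with array weights, all of them lower. On the values as deposited there was 1 call, which was higher, so that count reversed. Leaving out each array gave 0 to 9. The labels do not say that the numerals I and II pair arrays, so the numerals were not used as a pairing. Same-numbered arrays of different groups correlated at -0.017 to 0.309 in their deviations, over 0.1 in 3 of 6 pairs. These values do not settle whether the arrays were paired. A replicate block gave 4 calls. The single KPAW call became 2 with quantile normalization, with the mean of all probe sets and with no filter, where the second was Rpl3l, called higher from arrays at or near the lowest value (adjusted p = 0.0415), 0 on the values as deposited and with the groups alone, and 0 to 1 with an array left out. The other 3 contrasts had 0 calls under every alternative. The wild-type median of -0.30 ran from -0.47 to -0.20 with an array left out. With quantile normalization the medians moved from 0.04 to -0.14 for age in KPAW, from -0.18 to -0.023 for KPAW at 5 days, from 0.18 to 0.077 for KPAW at 1 month and from 0.38 to 0.11 for the interaction. Leaving out each array gave -0.07 to 0.19, -0.31 to -0.048, 0.06 to 0.28 and 0.24 to 0.51 for these. Of 762 comparisons of single genes with an alternative, 712 kept direction and side of the threshold, 27 lost a call, 3 gained one and 20 changed sign, none of the last with a call. Those that changed sign were Rps3a1 for age in KPAW (-0.072, quantile), Rpl7l1 for the interaction (0.00576, mean of probe sets), Rpl13a for KPAW at 1 month (0.00496 with median scaling, 0.0010 with the pseudocount at the 5th percentile, 0.066 with the mean of probe sets) and Rpl12 for KPAW at 5 days (-0.010 with quantile normalization, -0.00682 as deposited). The rest changed sign with an array left out, within these ranges: Rpl10a for age in wild type (-0.017 to 0.0554), Rpl22 for the interaction (-0.735 to 0.567) and at 1 month (-0.829 to 0.0558), Rpl13a at 1 month (-0.188 to 0.203), and Rpl27a (-0.22 to 0.286) and Rpl12 (-0.131 to 0.174) at 5 days. The cause was not tested.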

Other observations

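Mitochondrial ribosomal proteins, which are encoded in the nucleus and serve a separate ribosome inside mitochondria, were measured by 74 genes, all of which entered the tests. With age 11 fell in wild type (14.9%, against 9.33% of all probe sets) and 8 in KPAW (10.8%, against 7.51%), and none rose in either. The medians were -0.27 and -0.22, and 60 and 59 of the 74 lay below 0. The medians were -0.29 and -0.21 with quantile normalization, and 0.19 and -0.19 on the values as deposited, where all probe sets had 0.44 and -0.01 and 2 of these genes were called higher in wild type. Between KPAW and wild type none passed at either age, with medians of -0.02 at 1 month and -0.06 at 5 days. At 1 month 32 genes lay above 0 and 42 below.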
